A study of Mus musculus with 40 samples.

Results

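The miR-378 family is described here across brown fat, gastrocnemius muscle, liver and hypothalamus of the mouse. Its members are the 4 rows of the deposited miRNA count table named mmu-miR-378a-3p, mmu-miR-378a-5p, mmu-miR-378c and mmu-miR-378d, out of 1894 mature miRNA entries, of which 1613 were above 0 in at least 1 library. They were chosen by name. A further row, miR-378b, carries the family name but is no member, and it is used only for comparison. The 40 libraries form 8 groups of 5: for each tissue, 5 libraries of total small RNA (input) and 5 of RNA pulled down with streptavidin (IP). All mice were males of 8 to 12 weeks on a chow diet. The design crosses mice with a Cre-dependent UPRT transgene, Tg(CAG-GFP,-Uprt), with Ucp1-cre mice, and calls the offspring UCP1;UPRT. The genotype of each single mouse is not among the labels. The UPRT enzyme makes a nucleotide for RNA synthesis out of 4-thiouracil (4TU), and the Ucp1 promoter directs Cre to brown fat. Every group received 4TU, 50 mg/kg intraperitoneally, 4 times at 48 h intervals. Thiol groups of the RNA were then biotinylated and pulled down, so that the IP addresses which miRNAs carry the label in brown fat and in the other tissues. No group was labelled as lacking 4TU or Cre, so the background of the pull-down cannot be read from these libraries. The replicates within a group are separate mice by the labels, 10 mice in all, and most mice gave several tissues.

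miR-378a is made from a hairpin inside an intron of Ppargc1b, on the same strand as that gene. Ppargc1b encodes PGC-1β, a coactivator of mitochondrial and fatty acid oxidation genes. Each hairpin can give a mature strand from either arm. miR-378a-3p is the strand usually loaded into Argonaute, while miR-378a-5p is the strand of the other arm and was formerly written with a star. miR-378 is known from earlier work in brown fat and muscle as an abundant miRNA linked to energy metabolism. A miRNA finds its targets mainly through its seed, bases 2 to 8 from the 5′ end. Whether the tissues differ in mitochondria was not measured in these libraries.

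The related entries come from separate hairpins and are nearly the same in letters, which matters for counting, since a short read may match several of them. RefSeq (GRCm38.p6) held the mature sequence of 3 of the 5 entries named miR-378. They are shown 5′ to 3′ with the seed in capitals, to let the seeds and the shared stretch be compared.
miR-378c: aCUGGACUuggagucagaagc
miR-378d: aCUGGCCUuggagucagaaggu
miR-378b: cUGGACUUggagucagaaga
miR-378c (chr14:46954905-46954925, minus strand) is 21 bases long. Its hairpin lies in an intron of Samd4 on the opposite strand. miR-378d (chr10:126710355-126710376, minus strand) is 22 bases long, and its hairpin overlaps no other annotated gene. miR-378b (chr11:88352839-88352858, plus strand) is 20 bases long and lies in an intron of Msi2 on the opposite strand. Going from miR-378c to miR-378d, with positions counted from 1 at the 5′ end, the substitutions are A6C and C21G, and miR-378d is 1 base longer. The first of these lies in the seed, so miR-378c (CUGGACU) and miR-378d (CUGGCCU) have different seeds. miR-378b and miR-378c share a run of 19 bases, and miR-378c and miR-378d share a run of 14. The seed of miR-378b (UGGACUU) also differs from that of miR-378c, because miR-378b starts later in the shared stretch. miR-378c and miR-378b hold 4 uridines each and miR-378d holds 5, the base that 4TU can replace.

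Most counts of these entries were fractions. Within a tolerance of 0.001, only 1 of the 40 values of miR-378a-3p and 0 of the 40 values of miR-378c were whole numbers, against 18.9% of all positive values in the table. For miR-378a-5p, from the other arm, 1 of 34 positive values was whole. Fractions therefore do not single out the entries that are nearly the same in letters. Across the 20 inputs, log2 levels of miR-378c and miR-378a-3p had a Pearson r of 0.990, and across the 20 IPs 0.986. These are descriptions over libraries that share tissues and depth, and how much of miR-378c is read sharing with miR-378a-3p was not tested. miR-378a-3p held most of the family's counts everywhere. Its mean share of the 5 miR-378 entries ran from 92.3% in muscle inputs to 95.5% in liver inputs, and from 95.4% to 97.2% in the IPs.

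A level is the share of a library's miRNA counts, written as counts in 1000000 (CPM) or as a percentage. Library totals were 153036 to 5562487 in the inputs and 11928 to 921297 in the IPs. The tissues carried their own markers: miR-122-5p made up 37.2% to 43.3% of liver inputs and miR-1a-3p 59.8% to 63.4% of muscle inputs. Of all libraries, 2 stand apart. Hypothalamus input 4 had the lowest input total (153036), and 18.9% of its counts were striated muscle markers, against 0.155% to 0.259% in the other hypothalamus inputs. Hepatocyte markers took 2.29% (0.116% to 0.131% in the others) and neuron markers 5.02% (6.84% to 20.4% in the others). Liver IP 4 had 11928 counts. Its striated muscle markers took 1.63% of counts, against 0.0452% to 0.134% in the other liver IPs. Where leaving out these libraries changes a call, the value without them is given beside it. Brown fat libraries also carried muscle markers, 6.92% to 29.4% of input counts and 5.06% to 25.7% of IP counts.

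miR-378a-3p was among the leading miRNAs of brown fat. In the 5 brown fat inputs it stood at 93614, 121644, 121076, 131340 and 95208 CPM, which is 11.3% ± 1.71 of all counts (SD, n = 5), and it ranked 1 or 2 among all entries. In the muscle inputs it stood at 16720, 19021, 15329, 14672 and 14868 CPM, or 16122 ± 1807 (SD, n = 5), at rank 4 or 5. Liver inputs held 4958, 4210, 5668, 4423 and 7995 CPM, or 5451 ± 1529 (SD, n = 5). These 3 tissues did not overlap in CPM. The hypothalamus inputs held 2086, 1392, 1452, 11232 and 1038 CPM. The fourth of these values, from the library that stands apart, lies above every liver value, while the other 4 (1492 ± 436, SD, n = 4) lie below every liver value.

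**Figure D1:**
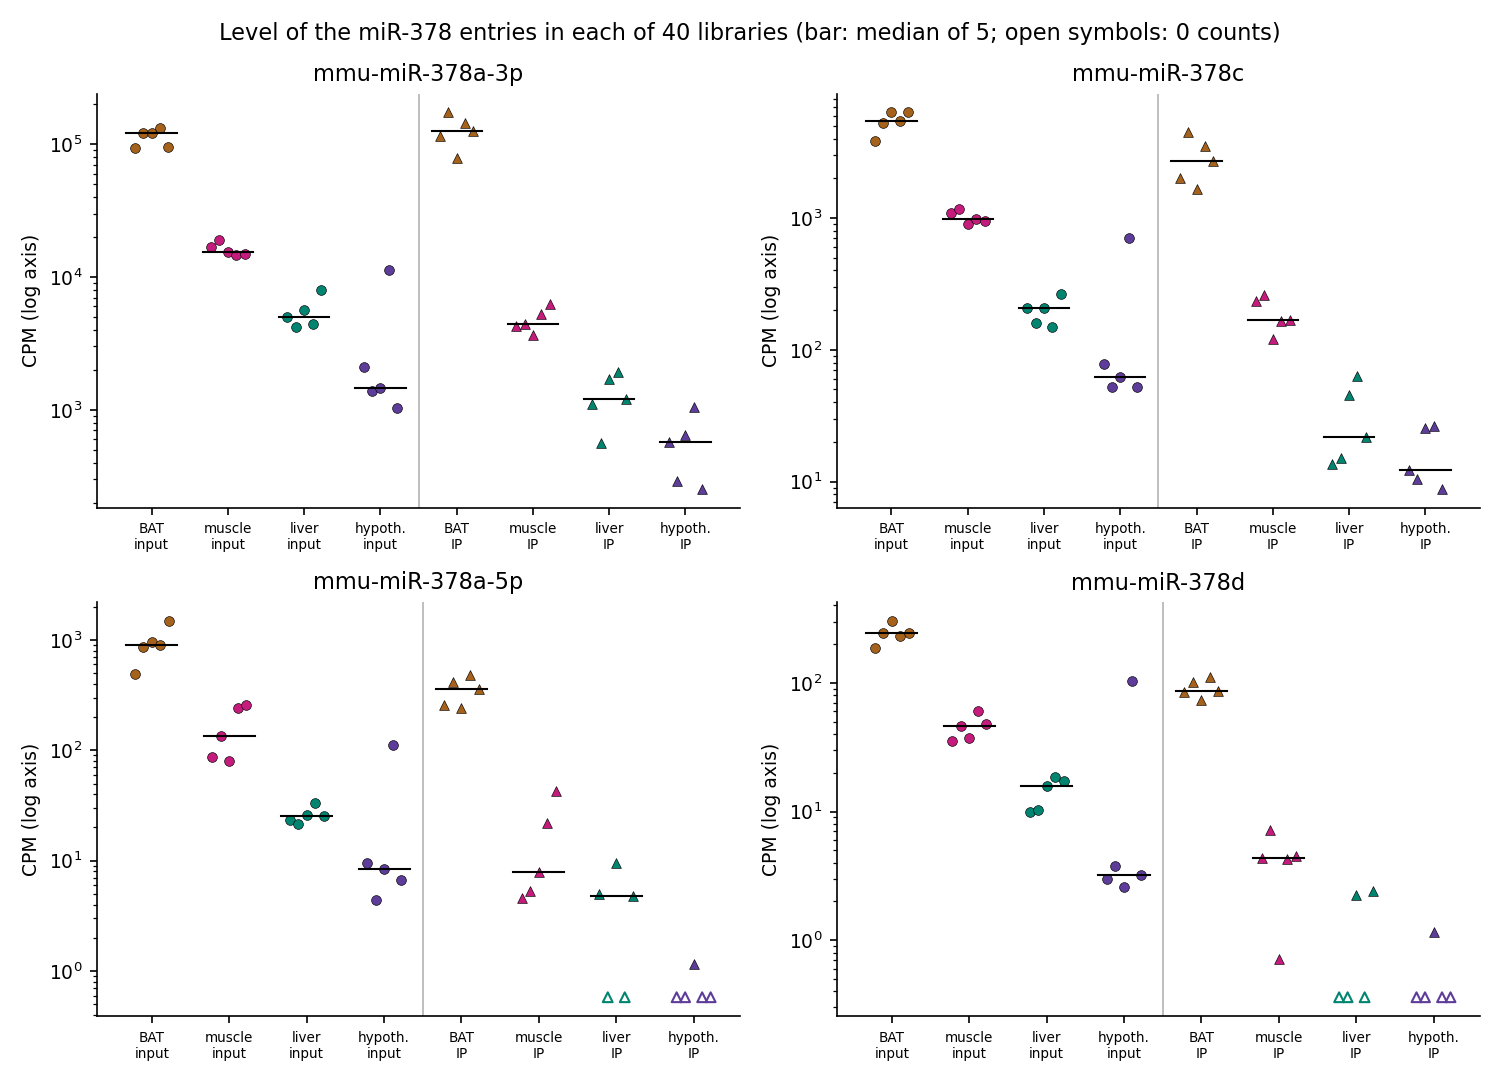
CPM on a log axis of miR-378a-3p, miR-378c, miR-378a-5p and miR-378d in each of the 40 libraries, inputs as circles on the left and IPs as triangles on the right, with the median of 5 as a bar and values of 0 as open symbols at the foot. All 4 entries are highest in brown fat, among inputs and among IPs. Apart from 1 library, the hypothalamus inputs are lowest, whereas liver and hypothalamus IPs overlap.

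The related entries followed the same order of tissues at lower levels. miR-378c, the next most abundant, stood at 3861, 5251, 6352, 5482 and 6340 CPM in brown fat inputs and at 1021 ± 116 CPM in muscle (SD, n = 5). Its level was 198 ± 46.1 CPM in liver (SD, n = 5) and 61.3 ± 12.2 CPM in the 4 hypothalamus inputs apart from the fourth (SD, n = 4), which held 707 CPM. miR-378a-5p, the other arm of the miR-378a hairpin, stood at 494, 857, 962, 908 and 1489 CPM in brown fat inputs. It reached 79.3 to 258 CPM in muscle, 21.5 to 33.4 in liver and 4.39 to 9.61 in the same 4 hypothalamus inputs. miR-378d stood at 187 to 304 CPM in brown fat, 35.3 to 60.9 in muscle, 9.92 to 18.7 in liver and 2.60 to 3.76 in those hypothalamus inputs. For each of the 4 entries, every brown fat input lay above every input of the other 3 tissues on the CPM scale.

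Between input tissues, the 4 members were tested with edgeR's quasi-likelihood test over all 444 miRNAs that passed the filter, and a call needed an adjusted p under 0.05 (Benjamini-Hochberg). All 4 were called higher in brown fat than in liver, where 45.9% of all tested miRNAs were called in either direction. miR-378a-3p was higher there by a log2 difference of 3.08 (SE 0.60, adjusted p = 0.000251), miR-378c by 3.47 (SE 0.66), miR-378d by 2.84 (SE 0.68) and miR-378a-5p by 3.86 (SE 0.61). All 4 were called higher in brown fat than in hypothalamus (background 84% called), with miR-378a-3p at 5.25 (SE 0.66, adjusted p = 2.65e-07). In muscle against hypothalamus all 4 were higher in muscle (background 83.1%), with miR-378a-3p at 4.60 (SE 0.64, adjusted p = 1.22e-06). Liver was lower than muscle for all 4 (background 54.7%), with miR-378a-3p at -2.43 (SE 0.58, adjusted p = 0.00147), and higher than hypothalamus for all 4 (background 80.9%), with miR-378a-3p at 2.17 (SE 0.57, adjusted p = 0.00176). With libraries scaled by total counts alone, the miR-378a-3p call of liver over hypothalamus was lost. Without hypothalamus input 4, miR-378a-3p differed from hypothalamus by 6.70 in brown fat (SE 0.35), 6.04 in muscle (SE 0.34) and 3.62 in liver (SE 0.30). The other 3 members then lay 6.58 to 7.33 above hypothalamus in brown fat, 6.28 to 6.90 in muscle and 3.41 to 3.75 in liver, and all stayed called. These backgrounds count calls in either direction, and where most tested miRNAs were called, being called sets the family little apart. Calls in the family's direction were fewer. Against hypothalamus, 156 of the 444 were higher and 217 lower in brown fat, 138 higher and 231 lower in muscle, and 142 higher and 217 lower in liver. The brown fat difference of miR-378a-3p stood at percentile 93.7 of all tested miRNAs against liver and 96.6 against hypothalamus. With the mouse as a block, 3 of the miR-378d calls were lost: brown fat against liver (2.96, adjusted p = 0.0914), liver against muscle (-2.31, adjusted p = 0.0962) and liver against hypothalamus (2.48, adjusted p = 0.0678).

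Brown fat and muscle are neighbours in this order, and their difference depended on how libraries were scaled. On the CPM scale the mean of miR-378a-3p was 6.98 times as high in brown fat inputs as in muscle inputs. With edgeR's default trimmed mean scaling (TMM), the difference was 0.65 on the log2 scale (SE 0.55, adjusted p = 0.375), a ratio of 1.57. Of the 4 members 0 were called by edgeR, against 40.1% of all tested miRNAs, and 0 had an unadjusted p under 0.05. DESeq2, which gave an adjusted p for miR-378a-5p and miR-378d alone, called 0 of these. The differences of miR-378c, miR-378a-5p and miR-378d were 0.25, 0.44 and 0.31. With total counts as the only scaling the difference of miR-378a-3p was 2.80 and called. With total counts that leave out miR-1a-3p and miR-122-5p, the leading miRNAs of muscle and liver, it was 1.67 and called (adjusted p = 0.0104). The scaling moved all miRNAs: their median difference was 0.163 with TMM, 2.25 with total counts and 1.15 without those 2 miRNAs, and the share of calls that were higher in brown fat was 56.7%, 98.1% and 90.1%. miR-378a-3p lay above the median each time. Without hypothalamus input 4, which shares the estimate of spread, it stayed at 0.65 with an SE of 0.25 and was called (adjusted p = 0.0383). Leaving out that library and liver IP 4 changed no other call of a member between tissues, in inputs or IPs, among the comparisons with more than 10 counts in each group. In bulk tissue, fewer cells of a type and less RNA per cell cannot be told apart.

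**Figure D2:**
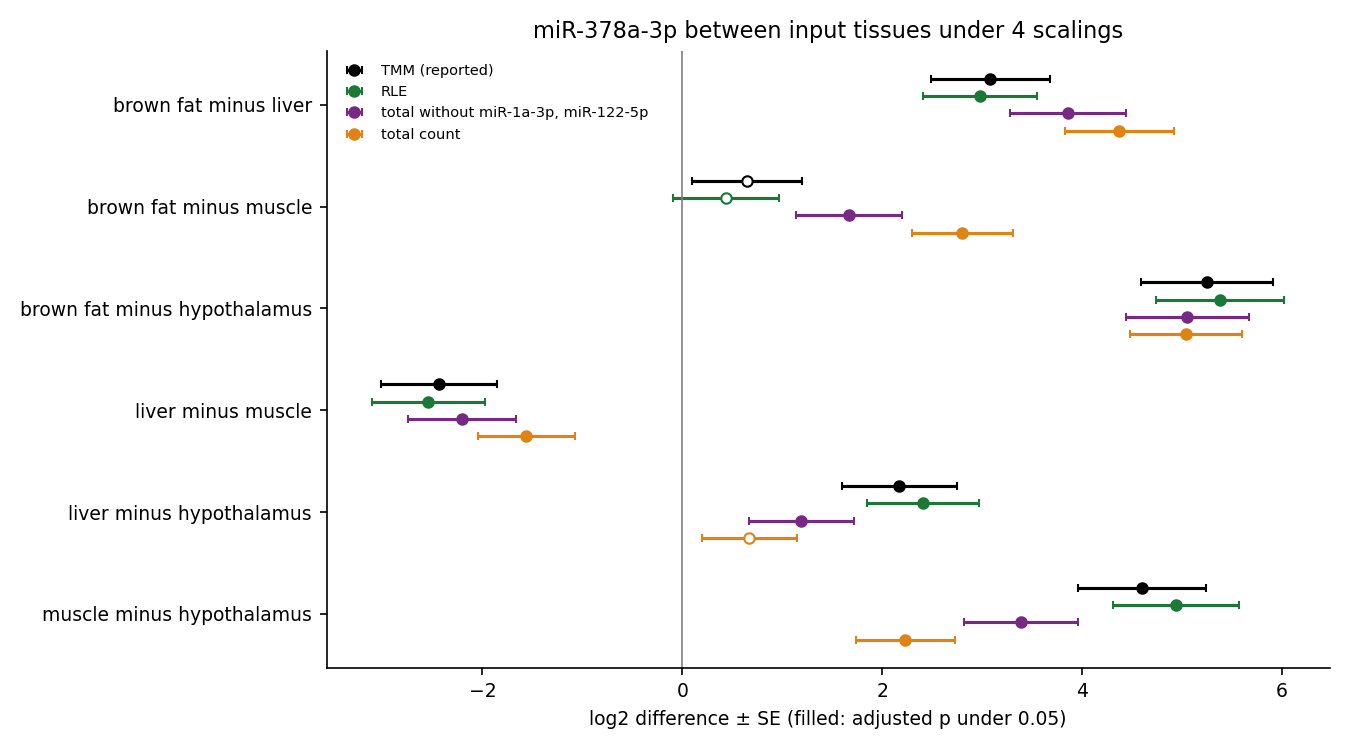
Log2 difference of miR-378a-3p between input tissues, with its SE, under 4 scalings of the libraries; filled points have an adjusted p under 0.05. Brown fat against muscle moves from 0.65 with TMM to 2.80 with total counts, while brown fat against hypothalamus stays near 5.

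Since brown fat libraries carried muscle markers, miR-378a-3p was set against miR-1a-3p, a miRNA of striated muscle. Muscle inputs held 26.4 ± 3.14 counts of miR-378a-3p per 1000 counts of miR-1a-3p (SD, n = 5), whereas brown fat inputs held 334 to 1902. At the muscle ratio, all of the miR-1a-3p in a brown fat input would come with 1.39% to 7.89% of the miR-378a-3p counted there. Leaving out brown fat 1 and 3, input and IP, whose inputs hold the most miR-1a-3p of the 5, changed none of the 6 input calls of miR-378a-3p. In hypothalamus input 4 the same ratio was 62.7 counts per 1000, against 533 to 948 in the other hypothalamus inputs. There, the miR-1a-3p would come with 42.0% of the miR-378a-3p. These shares assume the mean ratio of the 5 gastrocnemius inputs for whatever cells the miR-1a-3p came from. That ratio was not measured for other muscle, and the source of the miR-378a-3p was not tested.

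**Figure D3:**
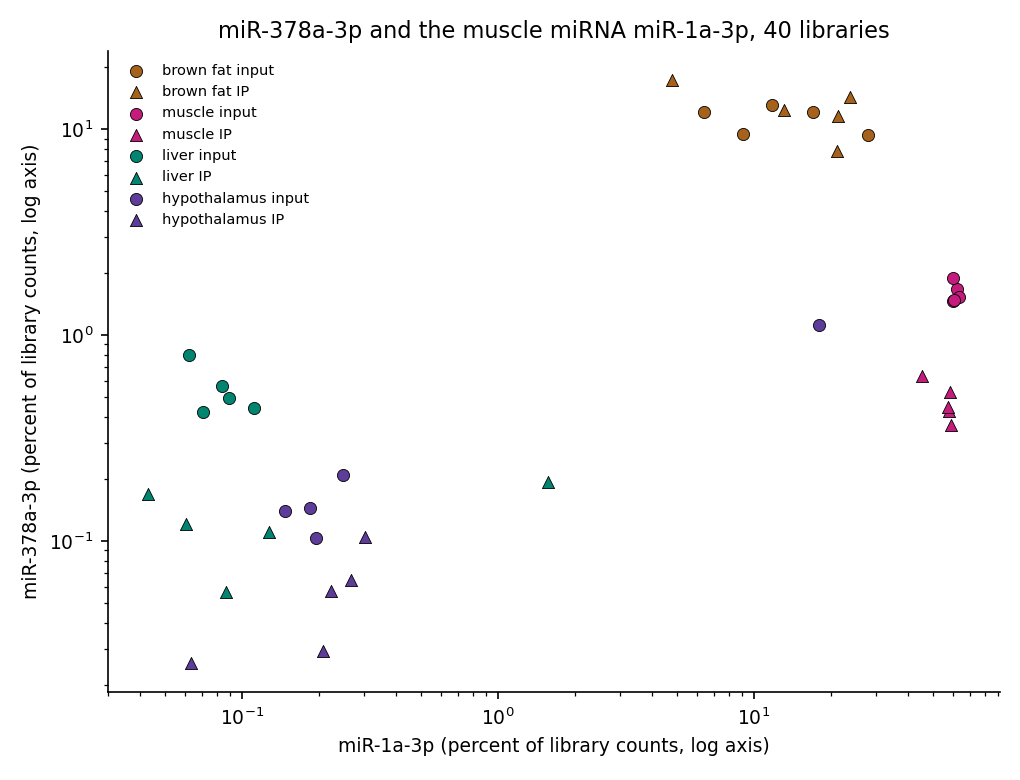
Percent of library counts taken by miR-378a-3p against that taken by miR-1a-3p in all 40 libraries, both axes log, inputs as circles and IPs as triangles. Muscle libraries have the most miR-1a-3p but less miR-378a-3p than every brown fat library, and 1 hypothalamus input lies apart from its group.

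In the pull-down, the order of tissues was the same and the spread between tissues wider on the CPM scale. Brown fat IPs held 115512, 173406, 78648, 143537 and 124499 CPM of miR-378a-3p, or 127120 ± 35011 (SD, n = 5), at ranks 1 to 4. Muscle IPs held 4261, 4457, 3667, 5269 and 6293 CPM, or 4790 ± 1018 (SD, n = 5). Liver IPs held 1106, 563, 1699, 1928 and 1202 CPM, the fourth from 23 counts, and hypothalamus IPs 569, 291, 646, 1045 and 254 CPM. Brown fat and muscle overlapped with no other tissue, whereas liver and hypothalamus overlapped. The mean in brown fat was 26.5 times that of muscle, 97.8 times that of liver and 227 times that of hypothalamus.

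All 4 members were called higher in the brown fat IP than in the muscle IP, where 41.1% of the 209 miRNAs tested were called by edgeR. miR-378a-3p differed by a log2 value of 3.10 (SE 0.60, adjusted p = 5.99e-05). With the mouse as a block, miR-378c (1.64, adjusted p = 0.179) and miR-378d (2.32, adjusted p = 0.290) were no longer called there. All 4 were called higher in brown fat than in liver (background 45.5%), with miR-378a-3p at 5.60 (SE 0.68, adjusted p = 5.62e-09) and miR-378c at 5.35 (SE 0.64). miR-378a-5p held 648 counts in the brown fat IPs, 24 in muscle and 6 in liver. miR-378d held 179, 11 and 1. These entries passed the filter only through brown fat, so their calls in its favour were partly fixed by the filter and add no support. All 4 were called higher in brown fat than in hypothalamus (background 82.3%), with miR-378a-3p at 9.13 (SE 0.79, adjusted p = 3.28e-13). In that group miR-378a-5p and miR-378d had 0 rounded counts, so no fold is given for them. Muscle exceeded hypothalamus for all 4 (background 69.9%), with miR-378a-3p at 6.03 (SE 0.69, adjusted p = 5.67e-10). Liver was lower than muscle for 2 of 4 (background 33%): miR-378a-3p at -2.51 (SE 0.59, adjusted p = 0.000697) and miR-378c at -3.26 (SE 0.59). Liver exceeded hypothalamus for 3 of 4 (background 68.9%), of which miR-378a-5p rests on 6 counts against 0. miR-378a-3p differed there by 3.52 (SE 0.62, adjusted p = 3.46e-06). On the CPM scale the liver and hypothalamus libraries overlapped. The miR-378c call between these groups (3.26) was lost with total counts (0.86, adjusted p = 0.192) and with the mouse as a block (2.20, adjusted p = 0.053).

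Set against its own input, miR-378a-3p held a similar share of counts in the brown fat pull-down and a lower share in the other 3 tissues. The mean CPM in the IP was 1.13 times the input in brown fat, 0.297 times in muscle, 0.238 times in liver and, for the medians, 0.392 times in hypothalamus. In brown fat the IP values of 78648 to 173406 CPM enclosed the input values of 93614 to 131340 CPM. In muscle the highest IP (6293 CPM) lay below the lowest input (14672 CPM), and in liver the highest IP (1928 CPM) lay below the lowest input (4210 CPM). In hypothalamus the highest IP (1045 CPM) lay just above the lowest input (1038 CPM), so these groups overlapped. All inputs were sequenced in pool 1 and all IPs in pool 2, so pool and library type cannot be told apart.

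In the brown fat comparison, 1 of the 4 members was called by edgeR, against 80% of 305 miRNAs. miR-378a-3p was 1.23 higher in the IP (SE 0.28, adjusted p = 0.000652) and stood at percentile 71.8 of all tested miRNAs, whose median was -0.341. That call was lost with total counts (0.18, adjusted p = 0.614) and with total counts that leave out miR-1a-3p and miR-122-5p (0.21, adjusted p = 0.491). Under these scalings the median of all tested miRNAs was -1.44 and -1.40, and 24% and 25.3% of the calls were higher in the IP, against 45.9% with TMM. miR-378a-5p (-0.30, SE 0.26), miR-378d (-0.34, SE 0.26) and miR-378c (0.12, SE 0.24) were not called. Under total counts all 3 of these were lower in the IP and past the threshold, at -1.44, -1.43 and -0.92. Leaving out brown fat 1 and 3 moved miR-378d to 0.04.

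In muscle, all 4 members were lower in the IP, against 85.1% of 268 miRNAs called. On the log2 scale, miR-378a-5p fell by 2.93 (SE 0.41, adjusted p = 5.16e-07) and miR-378d by 2.28 (SE 0.47, adjusted p = 9.37e-05), the latter from 956 input counts and 11 IP counts. miR-378c fell by 1.30 (SE 0.40, adjusted p = 0.00494) and miR-378a-3p by 0.86 (SE 0.37, adjusted p = 0.0344). The median of all tested miRNAs was -1.41, so miR-378a-3p and miR-378c lay above it. With total counts the median was -2.29, and miR-378c at -2.41 lay below it. The miR-378a-3p call was lost on leaving out muscle input 1 (-0.61), 2 (-0.64) or 3 (-0.66), or muscle IP 3 (-0.85) or 4 (-0.84).

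In liver, 1 of the 3 members that passed the filter was called, against 74.5% of 200 miRNAs. miR-378c was lower in the IP by 1.03 (SE 0.40, adjusted p = 0.0235), from 31 IP counts in all. Leaving out liver IP 1 (-0.85), 2 (-0.95) or 5 (-0.93) ended that call. miR-378a-3p differed by -0.69 (SE 0.41, adjusted p = 0.127), close to the median of all tested miRNAs (-0.783). It was called at -1.57 with the median of ratios (RLE) as the scaling and at -2.10 with total counts, where the median of all was -2.39. Leaving out liver IP 3 (-1.08) or any 1 liver input (-1.31 to -1.63) also gave a call. miR-378a-5p (-0.33, adjusted p = 0.658) rests on 6 IP counts. miR-378d did not pass the filter and had 1 IP count, where 13.3 would be counted at the input's share, a ratio of 13.3 with an exact 95% interval of 2.31 to 534. Such intervals cover counting error only, since these are PCR reads without molecular identifiers.

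In hypothalamus, both members that passed the filter were called, against 75.5% of 273 miRNAs. miR-378a-3p was lower in the IP by 2.41 (SE 0.82, adjusted p = 0.017) and miR-378c by 3.20 (SE 1.09, adjusted p = 0.018), the latter from 13 IP counts. These sizes rest on hypothalamus input 4. Without it, miR-378a-3p differed by -0.70 (adjusted p = 0.123) and was not called, and miR-378c by -1.12 (adjusted p = 0.0189). miR-378a-5p and miR-378d had 0 rounded IP counts, where 7.12 and 3.91 would be counted at the input's share. With a limit of 3 counts over the group, the bounds were 2.37-fold lower for miR-378a-5p and 1.30-fold lower for miR-378d on the total count scale. These bounds also rest on hypothalamus input 4, which gave 17 of the 82 input counts of miR-378a-5p and 16 of the 45 of miR-378d. They were not made without it, so a decrease of these members is not read from them.

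**Figure D4:**
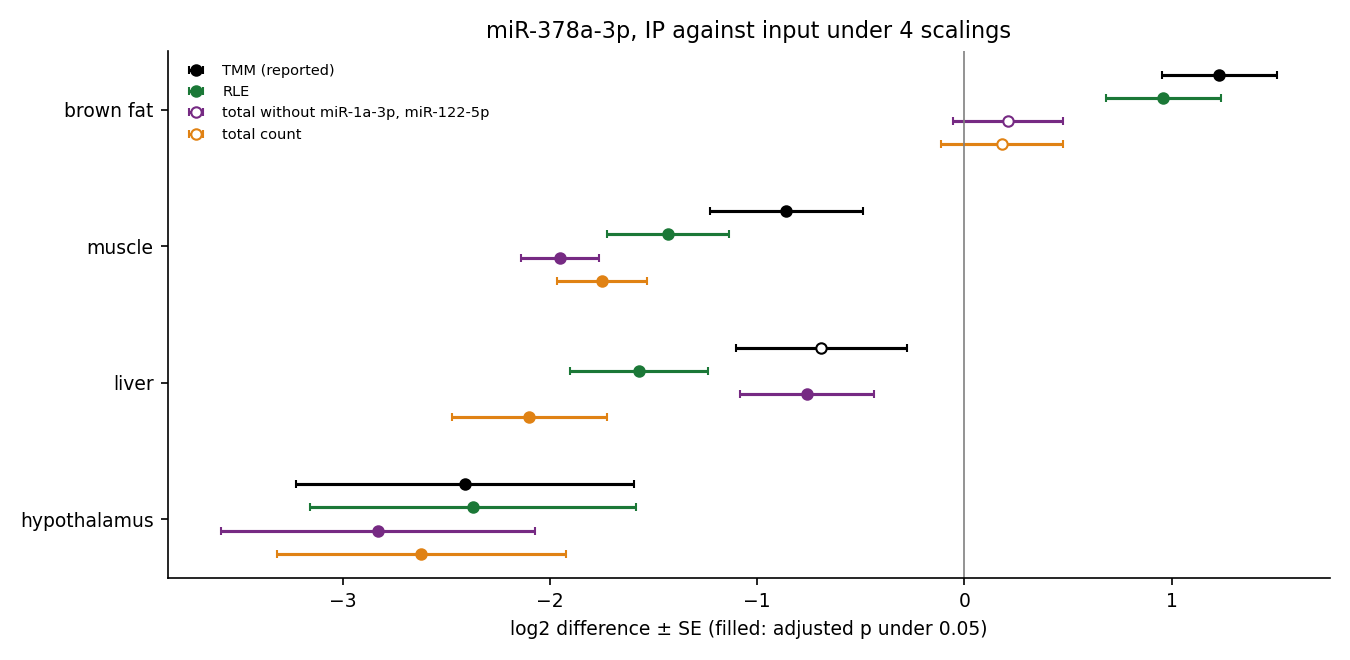
Log2 difference of miR-378a-3p between IP and input in each tissue, with its SE, under 4 scalings; filled points have an adjusted p under 0.05. The difference lies above 0 in brown fat and below 0 in muscle, liver and hypothalamus under all 4, but brown fat is past the threshold only with TMM and RLE.

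Whether the pull-down changed a member more in brown fat than elsewhere was tested as an interaction. These comparisons share the brown fat libraries. Between brown fat and muscle, 3 of 4 members differed, against 21% of 324 miRNAs. The difference of the changes was 1.91 for miR-378a-3p (SE 0.41, adjusted p = 0.00205), 2.37 for miR-378a-5p (SE 0.54, adjusted p = 0.00325) and 1.72 for miR-378d (SE 0.53, adjusted p = 0.0232). The median of all tested miRNAs was 0.527. For miR-378a-3p and miR-378a-5p, no single library and no scaling changed these calls. The miR-378d call was lost without muscle input 4 (1.63) or muscle IP 3 (1.45). miR-378c (1.25, SE 0.50, adjusted p = 0.076) missed the threshold, and with the mouse as a block it passed (1.34, adjusted p = 0.0309). It also passed in 11 of the 20 runs that leave out 1 library (1.35 to 1.64): any 1 brown fat input, brown fat IP 1, 2, 3 or 5, or muscle IP 1 or 2.

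Between brown fat and liver, 2 of 4 members differed, against 8.44% of 308 miRNAs. miR-378a-3p differed by 2.33 (SE 0.53, adjusted p = 0.0125) and miR-378c by 1.57 (SE 0.49, adjusted p = 0.0467), and the median of all tested miRNAs was 0.851. The miR-378a-3p call was lost with no filter on low counts (1.74, adjusted p = 0.0555), with total counts that leave out miR-1a-3p and miR-122-5p (0.97, adjusted p = 0.109; median of all -0.303), and without liver input 3 (1.87), liver input 5 (1.76) or brown fat IP 4 (1.72). The miR-378c call was lost without any 1 of 18 of the 20 libraries (lowest value 0.95), liver IP 4 among them (1.33, adjusted p = 0.130). The other 2 members rest on 6 and 1 counts in the liver IP.

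Between brown fat and hypothalamus, 0 of 4 members passed the edgeR threshold, against 34.4% of 422 miRNAs. miR-378a-3p differed by 1.44 (SE 0.77, unadjusted p = 0.0725, adjusted p = 0.163) and miR-378c by 1.11 (SE 0.93, adjusted p = 0.39), so 0 of them had an unadjusted p under 0.05. miR-378a-3p was past the threshold under RLE (2.72), total counts (2.80) and DESeq2 (2.72), and without hypothalamus input 4 (3.26). Over the 20 runs that leave out 1 library it ranged from 1.38 to 5.19, and 17 of them gave a call, all but those without brown fat input 4, hypothalamus input 3 or brown fat IP 4. miR-378c was called in the same 17 runs, at 2.60 (without hypothalamus input 4) to 4.87. The median of all tested miRNAs was -1.30 with TMM and 0.166 with total counts, and 6.21% and 69% of the calls were positive.

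Ratios within a library need no scaling between libraries, and they show how the family's entries moved against each other. Per 1000 counts of miR-378a-3p, brown fat inputs held 41.3 to 66.6 counts of miR-378c (median 43.2) and brown fat IPs 17.5 to 25.9 (median 21.9). Muscle inputs held 58.5 to 67.5 (median 63.4) and muscle IPs 26.8 to 58.1 (median 32.7). In both tissues input and IP did not overlap. The mean log2 ratio was 1.13 lower in the brown fat IP and 0.69 lower in the muscle IP (exact two-sided permutation test, p = 0.00794 for each, the smallest that 5 against 5 allows; 0.0265 after adjustment over the 10 comparisons of this ratio). The liver (-0.42, adjusted p = 0.258) and hypothalamus (-0.26, adjusted p = 0.326) differences did not pass this exact permutation test. Without liver IP 4 the liver difference was -0.66 and passed (adjusted exact permutation p = 0.0198).

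The miR-378d ratio was also lower in the brown fat and muscle IPs. In muscle it rests on few counts, 0.25 to 5.25 expected counts in an IP library and 11 rounded counts in all. The pseudocount therefore weighs on the muscle values. Its ratio per 1000 counts of miR-378a-3p had a median of 2.02 in brown fat inputs and 0.737 in brown fat IPs, and of 2.42 in muscle inputs and 0.815 in muscle IPs, with no overlap in either tissue. The mean log2 ratio was lower in the IP by 1.53 in brown fat and by 1.29 in muscle (adjusted exact permutation p = 0.0397 for each). With a pseudocount of 1 in place of 0.5 the differences were -1.50 and -0.91, and the adjusted exact permutation p was 0.0595 for both.

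The arm ratio, miR-378a-5p to miR-378a-3p, compares the 2 strands of 1 hairpin. The median was 7.04 per 1000 in brown fat inputs (5.28 to 15.6) and 2.86 in brown fat IPs (2.21 to 3.36), with no overlap. Muscle inputs had a median of 7.06 (5.17 to 17.3) and muscle IPs 2.16 (1.08 to 6.86), which overlap. The muscle IP ratios rest on 2.75 to 7.67 expected counts of miR-378a-5p in a library. The log2 difference was -1.53 in brown fat (exact permutation p = 0.00794, adjusted 0.0794) and -1.73 in muscle (exact permutation p = 0.0397, adjusted 0.185), so neither passed after adjustment over 10 comparisons. Without muscle IP 5 the muscle difference was -2.10 and passed (adjusted exact permutation p = 0.0397). Each of the 3 ratios was lower in the IP in 4 of 4 brown fat mice and 5 of 5 muscle mice with both libraries. The exact sign-flip p was 0.125 and 0.0625, the smallest that so few mice allow. In liver and hypothalamus IPs, miR-378a-5p and miR-378d had 0 to 4 counts in a library, so their ratios there are not read.

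**Figure D5:**
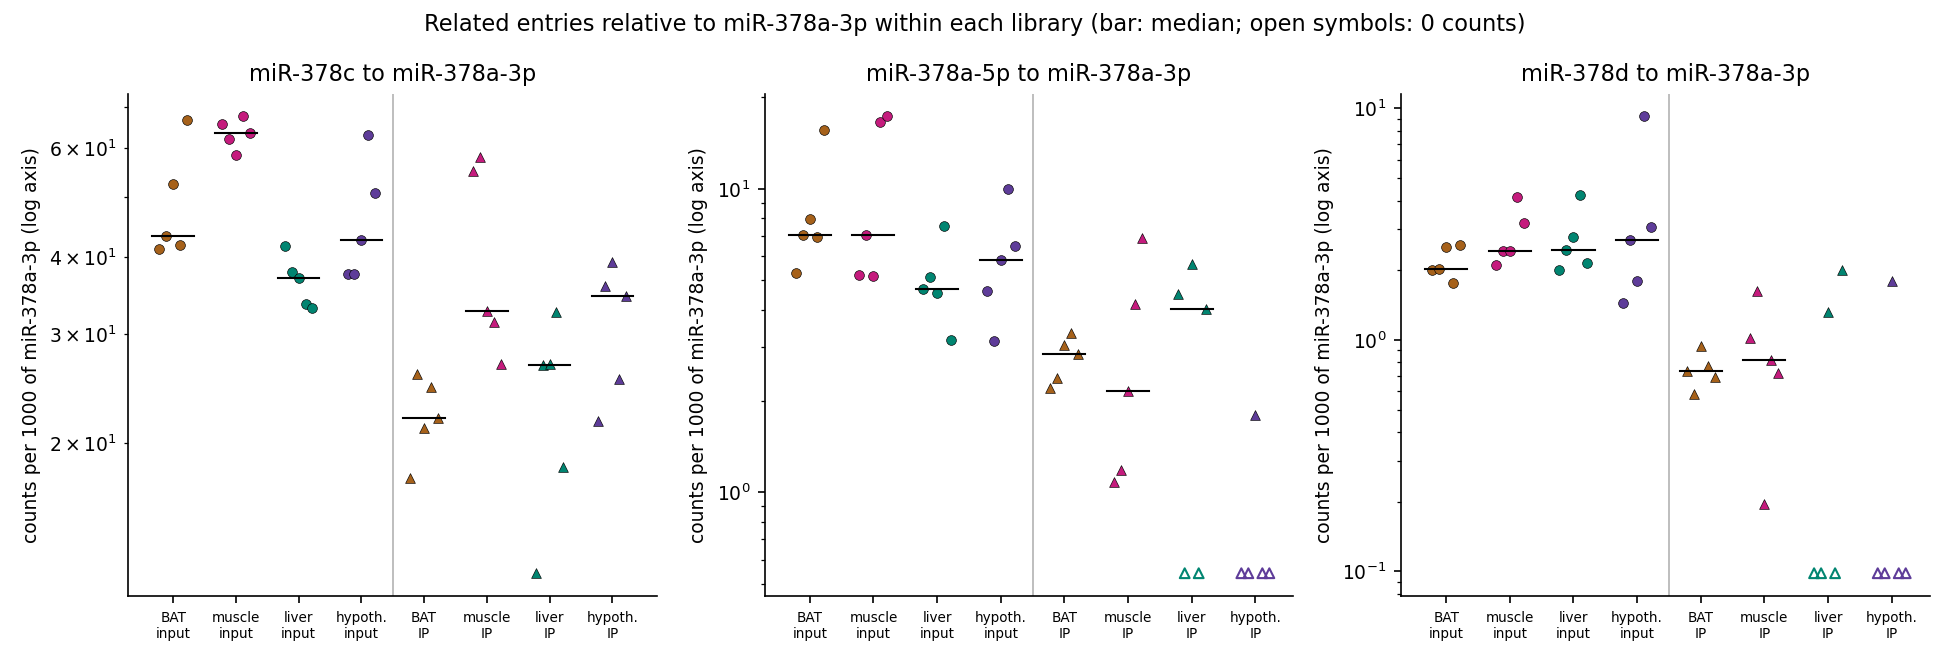
Counts of miR-378c, miR-378a-5p and miR-378d per 1000 counts of miR-378a-3p in each library, on log axes, inputs as circles and IPs as triangles, with the median as a bar and 0 as open symbols. In brown fat, every IP lies below every input for all 3 entries.

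Among inputs, the ratio of miR-378c to miR-378a-3p ranged over medians of 36.9 to 63.4 per 1000. It was lowest in liver and highest in muscle, which did not overlap, a log2 difference of -0.79 (adjusted exact permutation p = 0.0265). Brown fat lay 0.40 above liver and muscle 0.48 above hypothalamus (adjusted exact permutation p = 0.0476 for each), and both missed the threshold with a pseudocount of 1 (0.0595 and 0.0635, adjusted exact permutation p). The first also missed it without brown fat input 3 or 5 or without liver input 2, 3, 4 or 5 (0.28 to 0.41), and the second without any 1 muscle input (0.45 to 0.50). Brown fat lay below muscle by 0.39 (adjusted exact permutation p = 0.0661), and without brown fat input 5 by 0.51, which passed (0.0198). The arm ratio and the miR-378d ratio passed the threshold in 0 of their 6 input comparisons each, by the exact permutation test. At an unadjusted exact permutation p under 0.05 the number was also 0 for both.

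Among inputs, the relatives of miR-378a-3p that were abundant enough to be ranked followed it most closely, with miR-450a-5p next. miR-378d was too low to be ranked, and among IPs miR-378c was the only relative ranked. Of 197 miRNAs with at least 100 CPM over the 20 inputs, the 5 with the highest Pearson r of log2 level were miR-378c (0.993), miR-378b (0.982), miR-378a-5p (0.974), miR-450a-5p (0.961) and miR-126b-5p (0.948). miR-126b-5p carries the same mean levels as miR-126a-3p, an endothelial miRNA (r 0.948). miR-450a-5p stood at 502 CPM on average in brown fat inputs and at 60.6 to 76.3 CPM in the others. Of 135 miRNAs in the 20 IPs, the 5 were miR-378c (0.987), miR-10b-5p (0.933), miR-143-3p (0.928), miR-126b-5p (0.91) and miR-126a-3p (0.91). These values describe 20 libraries from 4 tissues, which share depth and tissue differences, and miR-378c may share reads with miR-378a-3p.

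Other miRNAs linked to brown fat give a frame for these values. The list joins miRNAs reported to promote brown fat genes with others reported to limit them, so its counts mix opposite roles. Of 23 miRNAs reported to promote or limit brown fat genes, inputs of brown fat were higher than liver for 14 and lower for 0 by edgeR (list median 1.25, all tested 0.157), where 45.9% of all tested miRNAs were called. Against muscle, 12 were higher and 2 lower (median 1.10, all tested 0.163), beside 40.1% called in all. Against hypothalamus 17 were higher and 3 lower (median 2.65, all tested -0.624). The share called in either direction lies near the 84% of all, but of all tested miRNAs 156 were higher and 217 lower. miR-193b-3p, which is reported to promote brown fat differentiation, was 4.02 higher in brown fat than in muscle (SE 0.51, adjusted p = 1.03e-05), where miR-378a-3p was not called. In the brown fat pull-down, 4 of the 21 tested were higher and 13 lower (median -1.01, all tested -0.341). The share called in either direction is again near the 80% called in all, where 112 were higher and 132 lower. Of the list's 4 most abundant members, let-7i-5p (3.47) and miR-125b-5p (0.80), both reported to limit brown fat genes, were higher. Lower were miR-30c-5p (-1.49), reported to promote them, and miR-133a-3p (-1.74), reported to limit them and also a striated muscle marker. These counts are from TMM scaling and were not made under the others.

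A list of 6 miRNAs that lie inside genes was set beside miR-378a, whose host is a metabolic gene. A metabolic role is not shown here for every host on the list. Brown fat libraries also carried muscle markers, and whether muscle adds to the levels of listed miRNAs there was not tested. Of the 4 tested among inputs, 3 were higher in brown fat than in liver and 0 lower, 2 were higher than in muscle and 0 lower, and 3 were higher than in hypothalamus and 1 lower. The shares of all tested miRNAs called there were 45.9%, 40.1% and 84%. miR-103-3p and miR-107-3p lie in introns of pantothenate kinase genes. They were 2.16 (SE 0.20, adjusted p = 3.51e-08) and 3.17 (SE 0.28, adjusted p = 2.45e-08) higher in brown fat inputs than in muscle inputs. In the brown fat pull-down 0 of the 3 tested were higher and 2 lower (80% called in all), with miR-107-3p at -0.67 (SE 0.30, adjusted p = 0.0496), whereas miR-378a-3p was higher there with TMM scaling.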

How the data were processed

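The authors deposited 1 table of expected counts, estimated counts of mature miRNA entries for 40 libraries. Per the submitters' processing notes, fastp, STAR and featureCounts were used with mm10, and per the labels' protocols RNA was extracted with Trizol and libraries made with the NEBNext small RNA kit. Tool versions and the handling of reads that match several entries are, in the sources used here, not given. Samples were grouped by tissue and library type from the labels, and 0 columns were left without a sample. For edgeR, DESeq2 and summed counts, the values were rounded, which changed a total by at most 0.127%. Counts were tested in R 4.3.3 with edgeR 4.0.16 (filterByExpr by group, TMM, quasi-likelihood test, two-sided, Benjamini-Hochberg over all miRNAs tested, adjusted p under 0.05). Input tissues were fitted over 20 libraries, IP tissues over 20, IP against input over the 10 libraries of a tissue, and interactions over 20. Ratios were log2((a + 0.5)/(b + 0.5)) of unrounded expected counts in 1 library. They were tested by exact permutation in Python 3.11.15, with the Benjamini-Hochberg adjustment from scipy 1.17.1. Alternatives were RLE scaling, total counts, total counts without miR-1a-3p and miR-122-5p, no filter, a minimum of 10 CPM, DESeq2 1.42.0, the mouse as a block, the miR-378 entries summed, a pseudocount of 1, and libraries left out. Scripts were tested on simulated data. Of the 20 input and IP pairs, 19 share a mouse according to the labels (brown fat 5 does not). Within these pairs, deviations from the group means correlated at -0.04 to 0.58 (median 0.153; 13 over 0.1). Named miRNAs are all entries of the family, the 5 most alike in inputs and in IPs, up to 4 abundant members of 2 lists, and cell type markers. The members, lists and tests were chosen with earlier results of these data known. Hairpin places are from GENCODE on GRCm38.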

Additional observations from a re-analysis of the deposited data

Results flagged for a closer look

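Hypothalamus input 4 lay far above its group for all 4 members. miR-378a-3p stood there at 11232 CPM, against 2086 CPM in the next highest library. miR-378a-5p stood at 111.9 CPM (next 9.61), miR-378c at 707.0 CPM (next 78.3) and miR-378d at 103.8 CPM (next 3.76). This library had the lowest input total, and striated muscle markers took 18.9% of its counts, hepatocyte markers 2.29% and neuron markers 5.02%. Their part in these values was not tested. In hypothalamus IP 3, miR-378a-5p and miR-378d stood at 1.159 CPM each while the other 4 libraries were at 0, which is less than 1 expected count for each entry. The gap of 1 library to the rest was examined in 32 combinations of member and group. A library was flagged where the gap exceeded 0.71 of the range of its group (Dixon's ratio). For normally distributed values chance alone does this in about 1 of 20 groups. That rate need not hold for CPM of few counts, and the members share libraries and may share reads. With 4 libraries at 0 the ratio is 1 whatever the fifth value, so the flags of hypothalamus IP 3 say nothing more.

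The change from input to IP differed between brown fat and another tissue, by edgeR's interaction test, in 5 cases. Against liver, where 8.44% of 308 tested miRNAs were called, these were miR-378a-3p (2.328 on the log2 scale, adjusted p = 0.0125) and miR-378c (1.568, adjusted p = 0.0467). Of 20 runs that leave out 1 library, 3 ended the miR-378a-3p call and 18 the miR-378c call. Against muscle, where 21% of 324 were called, they were miR-378a-3p (1.915, adjusted p = 0.00205), miR-378a-5p (2.374, adjusted p = 0.00325) and miR-378d (1.716, adjusted p = 0.0232). The miR-378d call was lost in 2 of 20 such runs. Against hypothalamus, where 34.4% of 422 were called, no member was.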

How the results depend on the processing

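For miR-378a-3p, total counts gave 2.80 for brown fat minus muscle inputs (called), 0.67 for liver minus hypothalamus inputs (not called), 0.18 for the brown fat IP (not called), -2.10 for the liver IP (called) and 2.80 for the interaction of brown fat and hypothalamus (called). Total counts without miR-1a-3p and miR-122-5p gave 1.67 (called), 0.21 for the brown fat IP (not called), -0.76 for the liver IP (called), 0.97 for the interaction with liver (not called) and 3.04 for that with hypothalamus (called). RLE gave -1.57 for the liver IP and 2.72 for the hypothalamus interaction, DESeq2 -1.56 and 2.72, all called. With no filter the liver IP was -1.40 (called) and the liver interaction 1.74 (not called). A minimum of 10 CPM gave 4.83 for the hypothalamus interaction, and leaving out brown fat 1 and 3 gave 4.81, both called. Without hypothalamus input 4 and liver IP 4, chosen after the data were seen, brown fat minus muscle inputs was 0.65 (called), the hypothalamus IP -0.70 (not called) and the hypothalamus interaction 3.26 (called). Leaving out 1 library at a time gave 0.58 to 0.77 for brown fat minus muscle inputs, -1.63 to -0.52 for the liver IP, -1.22 to -0.61 for the muscle IP and -2.84 to -0.70 for the hypothalamus IP. It gave 1.72 to 2.46 and 1.38 to 5.19 for the interactions with liver and hypothalamus, and -2.10 to -1.44 for the arm ratio in muscle. The cause was not tested.

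With the mouse as a replicate block, miR-378a-3p was 1.10 higher in the brown fat IP and lower by 1.34 in hypothalamus, and brown fat minus muscle inputs was 1.01. The block changed the call of 0 of 15 main results. Among these, the arm ratios in brown fat and muscle were not called before, and their sign-flip test cannot pass at this number of mice, so they could not change. Calls of 11 other results did change, 4 of them ratios that the same test cannot pass. The other 7 stand beside their results.

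Directions turned where the main value was small, but not every turned value was small. miR-378c in the brown fat IP (0.12) was -0.13 with RLE and with DESeq2, -0.92 with total counts (past the threshold), -0.89 without the 2 leading miRNAs and -0.30 with no filter. miR-378d there was 0.04 without brown fat 1 and 3. Among input ratios to miR-378a-3p, miR-378a-5p in brown fat minus muscle was 0.04 without brown fat 1 and 3, and -0.40 to 0.09 with 1 library left out. miR-378c in brown fat minus hypothalamus was -0.04 to 0.20 with 1 left out. miR-378d in liver minus muscle was 0.02 with a pseudocount of 1 and -0.20 to 0.11 with 1 left out. Without hypothalamus input 4, miR-378d was 0.19 in liver minus hypothalamus (-0.44 to 0.19 with 1 left out) and 0.23 in muscle minus hypothalamus (-0.41 to 0.23). DESeq2 gave no adjusted p for miR-378a-3p in the 6 input comparisons and the hypothalamus IP.

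Leaving out any 1 muscle input ended the calls of the miR-378c and miR-378d ratios in the muscle IP, at adjusted exact permutation p of 0.0794 to 0.0926, with differences of -0.67 to -0.72 and -1.15 to -1.39. Of the values of other members and ratios under the alternatives that leave out no single library, 402 kept direction and side of the threshold, 22 gained a call, 32 lost it and 10 turned. IP depth limits miR-378a-5p and miR-378d in liver and hypothalamus, where no group holds more than 6 counts. In the muscle IPs they hold 24 and 11 counts.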
